A study of Oryzias melastigma with 12 samples.

Results

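Whole marine medaka larvae kept in 20 nM hexabromocyclododecane (HBCD) were compared with larvae kept in 0.2 nM, the highest and the lowest exposure of the study. The comparison was defined by the sample labels and takes 6 of the 12 arrays of the series, 3 per exposure. All 26429 custom probes on the array were considered, and neither the solvent controls nor the 2 nM arrays entered the choice of probes or the test. Exposure began within 24 hours of hatching and lasted 7 days, in 3 dishes of 100 larvae per group with 90% of the water renewed daily. Each RNA sample was a pool of 30 larvae. Both groups carried the same solvent, dimethyl sulfoxide diluted 1 in 30000. The other arrays hold 3 pools in solvent alone and 3 pools at 2 nM, and they are used below only to describe the probes that differed.

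HBCD is a brominated flame retardant used in polystyrene foam and textiles. It is fat soluble, breaks down slowly and builds up in aquatic animals, and in fish it has been studied for effects on thyroid hormones, oxidative stress and detoxifying enzymes of the liver. The larvae of the marine medaka, Oryzias melastigma, serve as a saltwater fish model in toxicity tests. In a single-colour array labelled RNA binds to short DNA probes on glass, and the brightness of each spot reports the amount of its transcript.

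The files name the probes only by their number in the custom design. Of the probe identifiers, 0 matched any entry of the RefSeq gene table of the species, which lists 28599 genes, so the transcripts cannot be named here and no pathway or tissue marker could be looked up. The labelled tissue, whole larvae, could not be checked against marker genes for the same reason. Probe sequences were not analysed here. Levels are given as log2 of the processed intensity minus the 75th percentile of the array, so that a level of 0 equals that percentile. Levels of different probes are not comparable with each other.

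The 75th percentile was 309 to 478 intensity units at 0.2 nM and 335 to 368 at 20 nM. Between 46.4% and 48.4% of probes were well above background on the arrays at 0.2 nM, and 44.0% to 45.8% on those at 20 nM. The 6 arrays shared no slide between the groups. All 3 arrays at 20 nM were on slide 3, replicates 1 and 2 at 0.2 nM were on slide 2, and replicate 3 at 0.2 nM was on slide 1 with the 3 controls. The arrays at 2 nM were divided between slide 3 (replicate 1) and slide 2 (replicates 2 and 3). Each array is 1 pool of larvae, and the labels do not say which dish a pool came from. The p-values measure only the spread between the arrays of a group. At 0.2 nM that spread covers pools and 2 slides, and at 20 nM pools on 1 slide. With no slide holding both groups, slide and exposure cannot be told apart within the 6 arrays.

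More probes were called higher than lower at 20 nM. A probe was tested if either group had it well above background in all 3 pools, which left 11746. Of these, 386 passed the threshold (3.29%), 289 of them higher (2.46%) and 97 lower (0.826%) than at 0.2 nM (limma, Benjamini-Hochberg adjusted p under 0.05). The higher probes differed by 1.04 on the log2 scale at the median, which is 2.06-fold, and the lower ones by -0.68, which is 1.60-fold. By measured value a difference of at least 2-fold was reached by 156 of the 289 and by 16 of the 97. Of the called probes, 20 of the 289 and 22 of the 97 were well above background on no array of the dimmer exposure. These entered the test only through the brighter exposure, and their fold is only a bound. In pooled whole larvae, a lower level can come from fewer cells of a type or from less RNA per cell, and these cannot be told apart.

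The balance between higher and lower probes differed between small and large differences. Over all tested probes, 5070 were higher and 6676 lower at 20 nM, with a median difference of -0.07. At an unadjusted p under 0.05 there were 4125 probes, 1827 higher and 2298 lower. Among differences of at least 2-fold, called or not, 353 were higher and 61 lower. With this scaling lower probes were thus the more numerous over all, and higher probes among differences of at least 2-fold. Of the latter, 202 of the 353 and 47 of the 61 lay in the dimmest of 4 equal groups by mean level. Some of these were not well above background in 1 exposure, so their fold is only a bound. The groups did not overlap for 4895 probes (41.7% of those tested), 1988 higher (16.9%) and 2907 lower (24.7%), and all 386 called probes were among them.

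**Figure D1:**
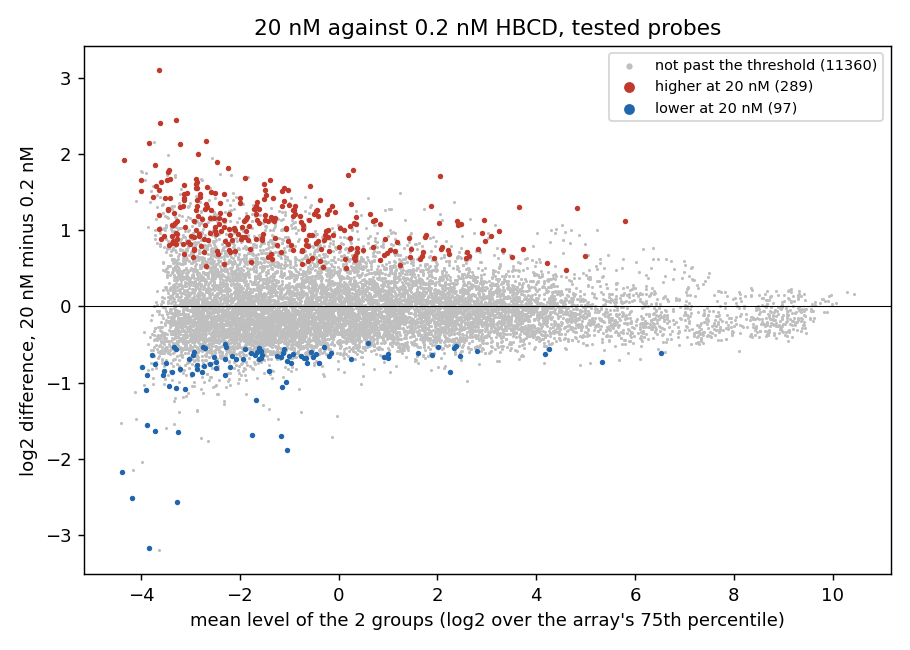
Log2 difference (20 nM minus 0.2 nM, vertical axis) against the mean level of both groups (log2 over the 75th percentile, horizontal axis) for 11746 tested probes, with 289 called higher in red and 97 called lower in blue. The largest differences lie among dim probes, and red points reach further from 0 than blue ones over most of the range.

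The calls lay close to the threshold and shared it with many others. The smallest adjusted p was 0.0193, 83 of the 386 probes had an adjusted p of at least 0.045, and a further 2527 probes lay between 0.05 and 0.1. The count also changed with single arrays. It was 93 without replicate 1 at 0.2 nM, 9 without replicate 2 and 2323 without replicate 3, the only array of either group on slide 1. Leaving out any 1 of the 3 arrays at 20 nM gave 0 calls in limma, with 3750, 3523 and 2979 probes at an unadjusted p under 0.05 without replicate 1, 2 and 3.

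The choice of scaling moved the balance between higher and lower probes. Scaling to the array median called 443 higher and 1139 lower, so the higher share was 28.0% in place of 74.9%. Scaling to control probes for E1A spike-in transcripts, an alternative added after the data were seen, called 1791 higher and 53 lower. That scaling moved the median difference of all tested probes by 0.20, from -0.07 to 0.13. These scalings move all probes of an array alike, by less than the smallest called difference, so they could not turn the direction of a called probe. Of the E1A probes, 8 were well above background on all 12 arrays, and 7 of these 8 were dimmer at 20 nM. Their mean level was 4.79 ± 0.05 at 20 nM and 4.99 ± 0.06 at 0.2 nM (SD, n = 3 each), without overlap. An exact permutation test, two-sided, gave p = 0.1, the smallest that 3 arrays against 3 allow. All 3 arrays at 20 nM were on slide 3, so slide and exposure cannot be told apart in this difference. The labels do not say how spike-in RNA was added, and its part in the balance of calls was not tested.

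Calls were more frequent among dim probes, where the order is one of brightness and not of transcript amount. With the tested probes ordered by mean level and cut into 4 groups of equal size, in the dimmest group 169 of 2937 were called (5.75%), 124 higher and 45 lower. The next groups held 125, 60 and 32 calls (4.26%, 2.04% and 1.09%). The brightest group had 23 higher and 9 lower probes. Among called probes, 226 of the higher and 72 of the lower ones were well above background on all 6 arrays. The rest entered the test through their brighter exposure alone. How far this filter raised the share called in the dimmest group was not tested. The median absolute difference was 0.36 in the dimmest and 0.19 in the brightest group, with a median SE of 0.19 and 0.12. Of probes printed 5 times 61 of 2205 were called (2.77%), and of those printed once 325 of 9534 (3.41%).

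Repeated spots showed the spread of a probe within a single array. Across the 5 spots of tested probes printed 5 times, the median SD on an array was 0.07 to 0.09. Over all 11746 tested probes, of which 9534 were single spots, the median SD between arrays was 0.15 at 0.2 nM and 0.16 at 20 nM. These SDs come from different sets of probes, so they do not measure how far arrays differ beyond spot error. For 49 of the 61 called probes with 5 spots, every spot on the 3 arrays of one exposure lay beyond every spot of the other. The same held for 289 of the 2205 tested probes with 5 spots (13.1%). The called probes were chosen on these same arrays and their groups did not overlap, so the higher share among them supports nothing further. Spots of a probe share their RNA sample and are not replicates of the exposure.

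Among called probes that were well above background on all 6 arrays, CUST_14628_PI414333748 had the largest increase. It was at -2.89, -3.22 and -3.35 on the arrays at 0.2 nM and at -1.36, -1.43 and -1.20 on those at 20 nM. The groups did not overlap. Their SD was 0.24 at 0.2 nM and 0.12 at 20 nM, beside medians of 0.15 and 0.16 over all tested probes. The log2 difference was 1.82 (SE 0.15, limma adjusted p = 0.0193), which is 3.53-fold. With normexp background correction it was 0.50 (SE 0.46, limma adjusted p = 0.766). With local backgrounds limited to the 99th percentile, an alternative added after the data were seen, it was 1.05 (SE 0.11, limma adjusted p = 0.0105). Normexp was run with an offset of 50 units. Processed intensities of this probe were 30 to 60 units at 0.2 nM and 130 to 159 at 20 nM. The part of the offset in these smaller differences was not tested. On the 2 nM arrays this probe was at -1.20 on slide 3 and at -3.26 and -2.91 on slide 2. The 2 nM pools thus lay with the 20 nM arrays on one slide and with the 0.2 nM arrays on the other. The controls were between, at -2.16, -1.69 and -1.51. Replicate 3 at 0.2 nM, on the slide of the controls, was below each of them and with the other 0.2 nM arrays.

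CUST_670_PI414333748, printed 5 times, was at -0.90, -1.02 and 0.08 at 0.2 nM and at 1.26, 1.09 and 1.21 at 20 nM. Replicate 3 at 0.2 nM stood about 1 log2 unit above the other two arrays of its group. It was the array on slide 1, where the controls were at 0.59, 0.28 and 0.34. Over its 5 spots on each array, the lowest value at 20 nM was 1.04 and the highest at 0.2 nM was 0.24. The log2 difference was 1.80 (SE 0.28, limma adjusted p = 0.0358), which is 3.47-fold. At 2 nM it was at 1.32 on slide 3 and at -0.95 and -0.74 on slide 2, a gap of 2.16 within one exposure. Without replicate 3 at 0.2 nM, which leaves its arrays of slide 2, the difference between 20 and 0.2 nM was 2.14.

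Among called probes well above background on all 6 arrays, the largest decrease was that of CUST_9818_PI414333748. It was at 0.04, -0.08 and -0.28 at 0.2 nM and at -1.84, -2.22 and -1.93 at 20 nM. Neither group spread by more than 0.4, and they were far apart. The log2 difference was -1.89 (SE 0.14, limma adjusted p = 0.0193), which is 3.71-fold lower. At 2 nM it was at -2.0 on slide 3 and at -0.80 and 0.11 on slide 2, and the controls were at -0.58, -0.87 and -0.83. Only the 4 arrays of slide 3 were below -1 for this probe.

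CUST_22417_PI414333748 was at 0.12, -0.04 and -1.01 at 0.2 nM and at -2.03, -1.92 and -2.08 at 20 nM. Its log2 difference was -1.70 (SE 0.28, limma adjusted p = 0.0382), which is 3.24-fold lower. Here the arrays at 2 nM did not separate by slide: replicate 1 on slide 3 was at -1.58 and replicate 2 on slide 2 at -1.63, while replicate 3 on slide 2 was at 0.12. The controls lay at -0.67, -0.55 and -0.53, below replicates 1 and 2 at 0.2 nM and above replicate 3. Among the probes chosen by the same rule, the 8 next largest increases ran from 1.73 to 1.53 and the 8 next largest decreases from -1.69 to -0.85. With normexp background correction, CUST_670_PI414333748, CUST_9818_PI414333748 and CUST_22417_PI414333748 differed by 1.39, -1.34 and -1.15 (limma adjusted p = 0.766 each). With local backgrounds limited to the 99th percentile, added after the data were seen, they differed by 1.56, -1.37 and -1.17, all past the threshold. Normexp used the same offset here, and its part in these values was not tested.

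**Figure D2:**
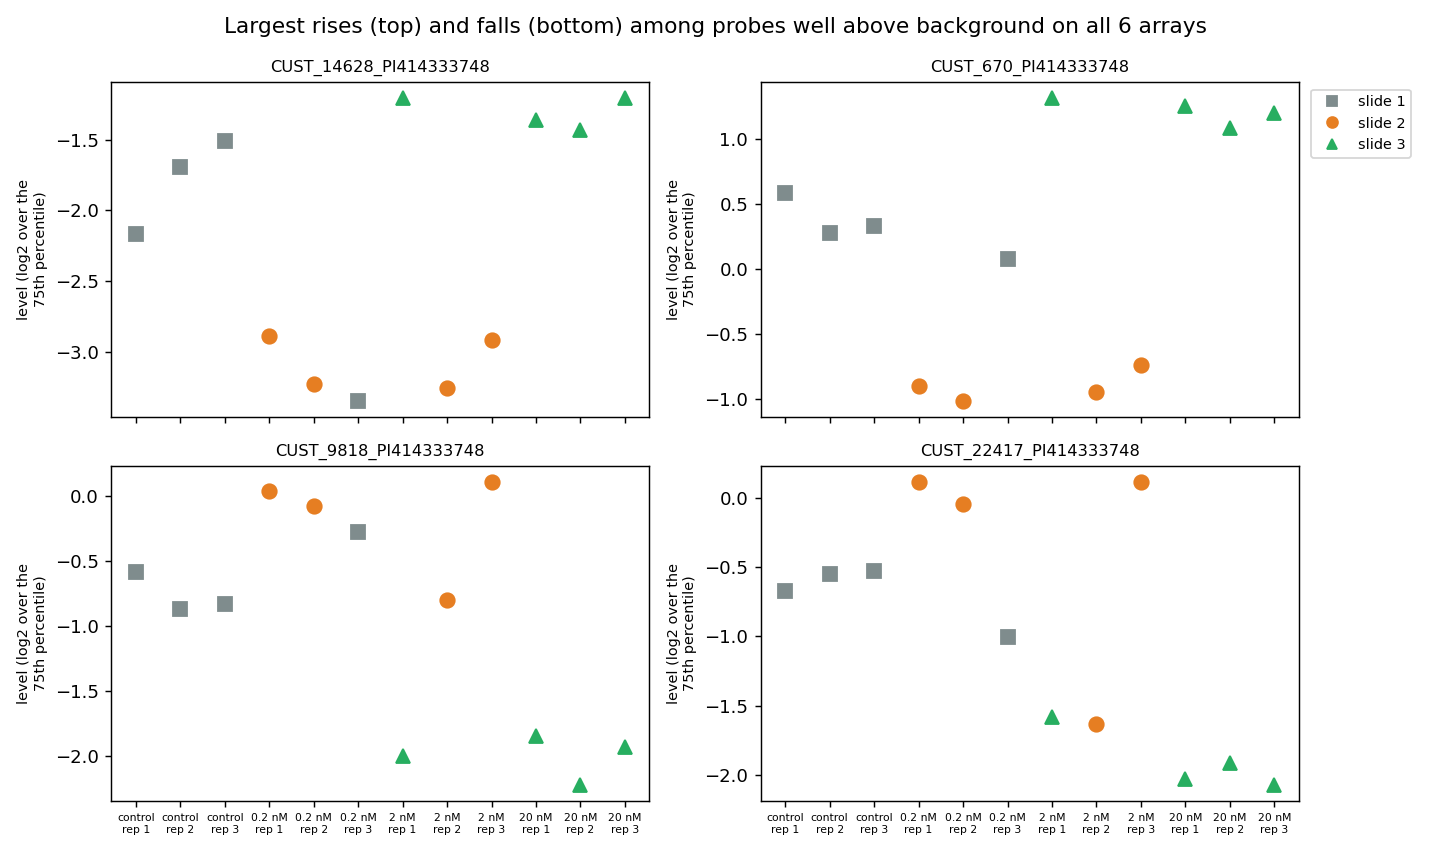
Level (log2 over the 75th percentile) of 4 probes on each of the 12 arrays, with marker shape and colour for the slide. In the upper panels and at lower left the 2 nM array of slide 3 lies with the 20 nM arrays, while the 2 nM arrays of slide 2 lie nearer to the 0.2 nM arrays; at lower right the 2 nM arrays of slide 2 differ from each other.

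The 2 nM arrays, which played no part in the choice of probes, showed the same division for most called probes. For the 289 higher probes the median level was -0.93, -1.06 and -1.02 at 20 nM and -2.24, -2.28 and -1.85 at 0.2 nM. The 2 nM array on slide 3 had a median of -0.89, and those on slide 2 had -2.03 and -2.03. On slide 3 the 2 nM array was nearer to the 20 nM mean than to the 0.2 nM mean for 284 of 289 probes (98.3%). On slide 2 this was so for 39 of 289 and 38 of 288. Over all tested probes the shares were 76.4% on slide 3 and 39.3% and 39.7% on slide 2.

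The 97 lower probes were divided less sharply. Their median level was -2.15, -2.06 and -2.06 at 20 nM, -1.33, -1.33 and -1.40 at 0.2 nM, -2.06 at 2 nM on slide 3 and -1.67 and -1.64 at 2 nM on slide 2. The 2 nM array on slide 3 was nearer to the 20 nM mean for 85 of 97 probes, and those on slide 2 for 41 and 34. On slide 2 the 2 nM arrays lay 41.7% and 39.5% of the way from the 0.2 nM to the 20 nM level for the median lower probe. For the median higher probe they lay 4.03% and 1.54% of the way. The controls were all on slide 1. Their mean lay between both exposure means for 264 of the 289 higher and 87 of the 97 lower probes.

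**Figure D3:**
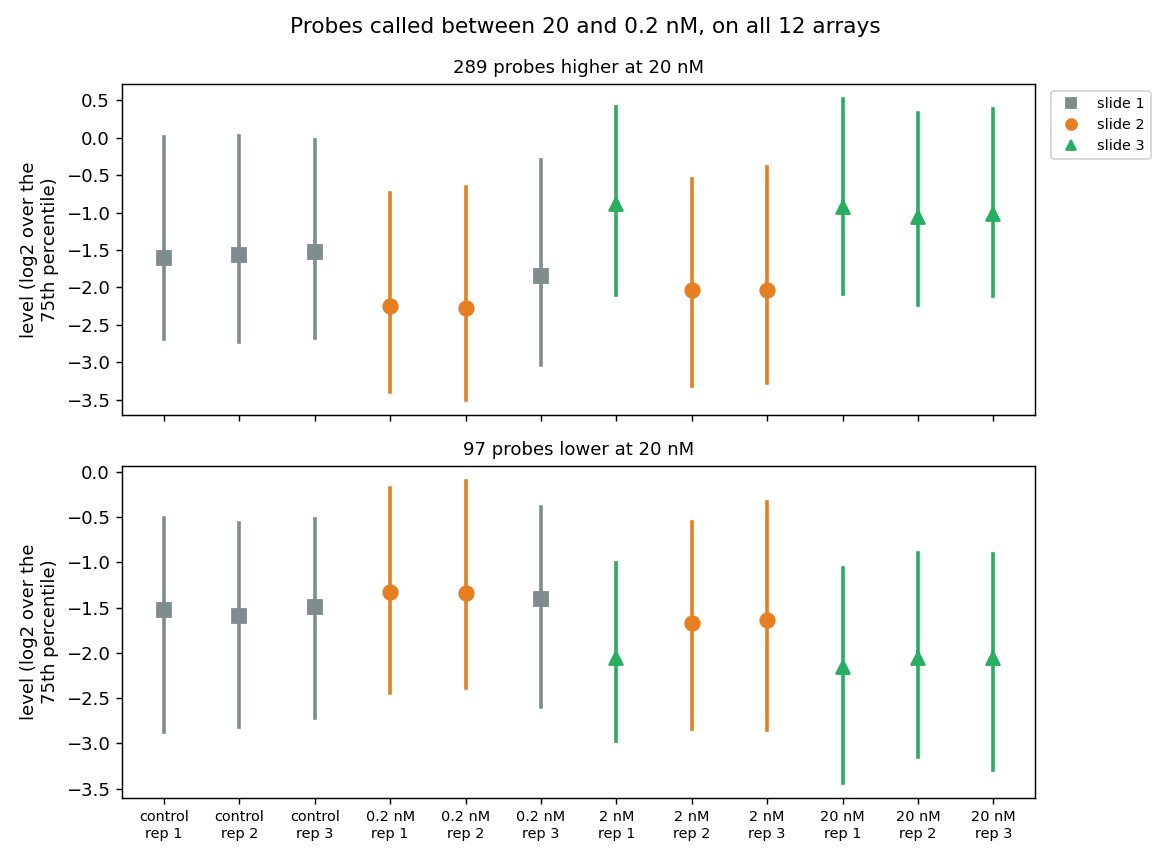
Median level (marker) and interquartile range (line) of the 289 probes higher and the 97 probes lower at 20 nM, in log2 over the 75th percentile, on all 12 arrays by exposure, with marker shape for the slide. For the higher probes the 2 nM array of slide 3 (median -0.89) matches the 20 nM arrays and the 2 nM arrays of slide 2 (both -2.03) lie near the 0.2 nM arrays.

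Within 2 nM, slide 3 was set against slide 2 at a fixed exposure, on arrays that took no part in the comparison. Each array is a different pool, so slide and pool cannot be told apart in this gap, which rests on 1 array against 2. It had the same sign as the difference between 20 and 0.2 nM for 282 of 288 higher probes and 84 of 97 lower probes, and for 76.4% of all tested probes. At the median it was 1.05 for the higher probes, beside 1.04 between 20 and 0.2 nM, and -0.35 for the lower probes, beside -0.68. Against the 0.2 nM arrays of slide 2 alone, the 20 nM arrays differed by 1.19 and -0.72 at the median. Across 11736 probes both differences correlated at Pearson r = 0.68. Probes are not independent, both differences set slide 3 mainly against slide 2, and this value describes these arrays only.

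**Figure D4:**
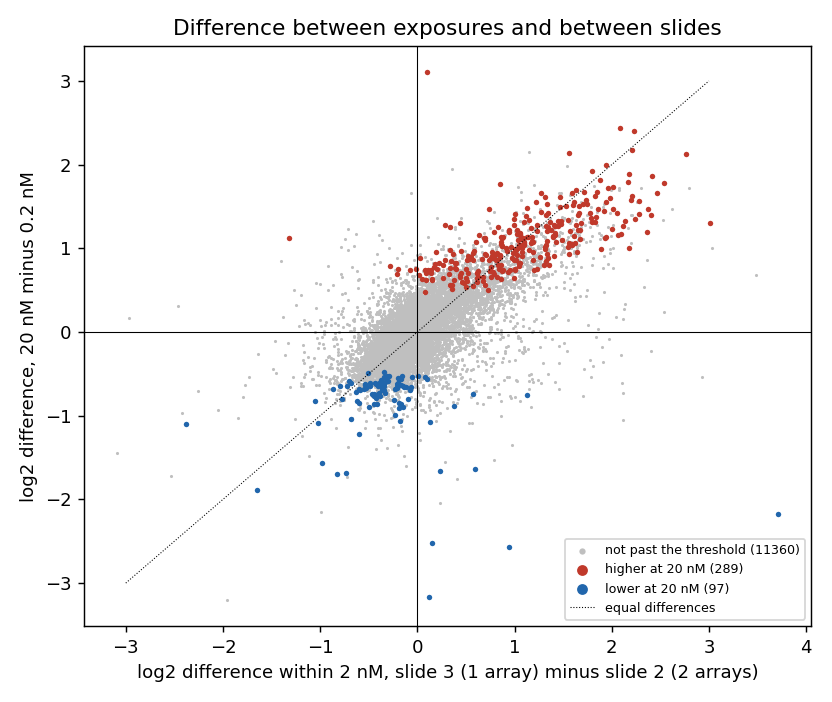
Log2 difference between 20 and 0.2 nM (vertical axis) against the log2 difference between slide 3 and slide 2 within the 2 nM group (horizontal axis) for the tested probes, red for called higher and blue for called lower. Red points spread along the dotted line of equal differences, with 282 of 288 to the right of 0, and 13 blue points lie to the right of the vertical line.

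The difference between the 20 nM arrays and the 0.2 nM arrays of slide 2 can be divided into 3 parts: from 0.2 to 2 nM on slide 2, from slide 2 to slide 3 at 2 nM, and from 2 to 20 nM on slide 3. For the higher probes the medians of these parts were 0.16, 1.05 and -0.06. For the lower probes they were -0.30, -0.35 and -0.06. The first and the last part share arrays with the comparison and carry no test here. Over all tested probes the median absolute sizes were 0.18, 0.24 and 0.11, beside 0.26 for the whole comparison. By measured value the step from 2 to 20 nM within slide 3 was the smallest of these parts in both called sets and among all tested probes. Neighbouring parts share their 2 nM arrays, which enter them with opposite sign. On slide 3 that is 1 array, so a deviation of its pool would raise one part and lower the other. The order of the parts thus does not rank slide against exposure.

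With slide as a fixed block over all 12 arrays, which leaves only the steps within slides, 6 probes passed, all lower at 20 nM, and 0 of them were among the 386. Their blocked differences were -1.21 to -2.84, while without the block they were -0.17 to -0.61. The median blocked difference was 0.13 for the 289 higher and -0.38 for the 97 lower probes, and the median SE over tested probes rose from 0.14 to 0.22. Blocked differences were -0.16 (SE 0.34) for CUST_14628_PI414333748, -0.023 (SE 0.20) for CUST_670_PI414333748, -0.33 (SE 0.40) for CUST_9818_PI414333748 and -1.22 (SE 0.66) for CUST_22417_PI414333748, with limma adjusted p of 0.710 to 0.985. The first and second of these changed sign, but both were smaller than their SE and cannot be told from 0. With slide as a random block within the 6 arrays, 43 probes passed (38 higher, 5 lower), and all 43 were among the 386. No slide holds both groups there, so this block cannot separate slide from exposure.

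Within 0.2 nM the array on slide 1 also stood apart from those on slide 2 for the higher probes. The lower probes were near the share of all tested probes. Replicate 3 lay beyond both other replicates on the side of the 20 nM level for 225 of the 289 higher probes (77.9%) and 57 of the 97 lower probes (58.8%), beside 57.6% of all tested probes. Set against that array alone, the 20 nM mean was higher by 0.78 at the median for the 289 probes, and against the arrays of slide 2 by 1.19. For the lower probes these medians were -0.62 and -0.72.

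Some probes were well above background in one exposure only, which does not mean that their transcript was absent from the other. Well above background on all 3 arrays at 20 nM and on none at 0.2 nM were 26 probes. Such probes entered the test only through the exposure where they are bright, so their calls support nothing. Of the 26, 20 were called, beside 3.29% of all tested probes. Their fold is only a lower bound, the bright mean over the higher of the lowest measurable signal and the dim probe's own value. The median of these bounds was at least 2.39-fold and the highest at least 4.46-fold. The reverse pattern held for 165 probes, of which 22 were called, with the same limit from the filter. For them the median bound was at least 1.26-fold, over the 161 with a bound above 1, and the highest at least 3.34-fold. The lowest level that counted as well above background was -3.43 to -4.17 at 20 nM and -4.13 to -4.33 at 0.2 nM, and its part in these counts was not tested.

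Detection at 2 nM followed the slide for the probes seen only at 20 nM. All 26 were well above background on the 2 nM array of slide 3, against 0 and 2 on the 2 nM arrays of slide 2. The controls detected 19, 7 and 7 of them. Of the 165 probes seen only at 0.2 nM, 43 were detected at 2 nM on slide 3 and 110 and 90 on slide 2, and 145, 45 and 85 on the controls. None of the 6 other arrays, at 2 nM or in controls, detected 5 of these 165, and 3 of the 5 were called.

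The gap within 2 nM ran against the difference between 20 and 0.2 nM for 6 higher and 13 lower probes, and 8 of these higher and lower probes together differed by at least 2-fold. For 9 of the 13 every 20 nM array was too dim to count as well above background. By measured value the largest called decrease of all was that of CUST_25053_PI414333748, a probe chosen after its values were seen. Its level was at -1.82, -1.81 and -3.16 at 0.2 nM and at -4.98, -5.61 and -5.70 at 20 nM. It was at least 2.77-fold lower at 20 nM, and it entered the test only through its 0.2 nM arrays. All 6 other arrays were dim as well, at -5.75, -6.16 and -5.57 at 2 nM and -5.08, -4.43 and -5.94 in controls. The transcript was thus well above background in the 3 pools at 0.2 nM, on slides 1 and 2, and in none of the other 9.

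The largest called increase, CUST_16207_PI414333748, was chosen in the same way. It was at -6.19, -5.24 and -4.15 at 0.2 nM, none well above background, and at -2.75, -1.26 and -2.26 at 20 nM. It was at least 4.46-fold higher at 20 nM, and it entered the test only through its 20 nM arrays. At 2 nM it was at -2.74 on slide 3 and at -4.25 and -1.43 on slide 2, and the controls lay at -3.90, -3.65 and -3.59. Replicate 3 at 2 nM was nearly as bright as the brightest 20 nM array, although it was on slide 2. Both of these probes are single spots. Their values on the dim arrays have no reliable order. CUST_25053_PI414333748 was dim on all 2 nM arrays, so it does not bear on the gap within 2 nM. For CUST_16207_PI414333748, 2 of the 2 nM arrays were well above background, and the 2 nM arrays of slide 2 differed widely from each other.

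**Figure D5:**
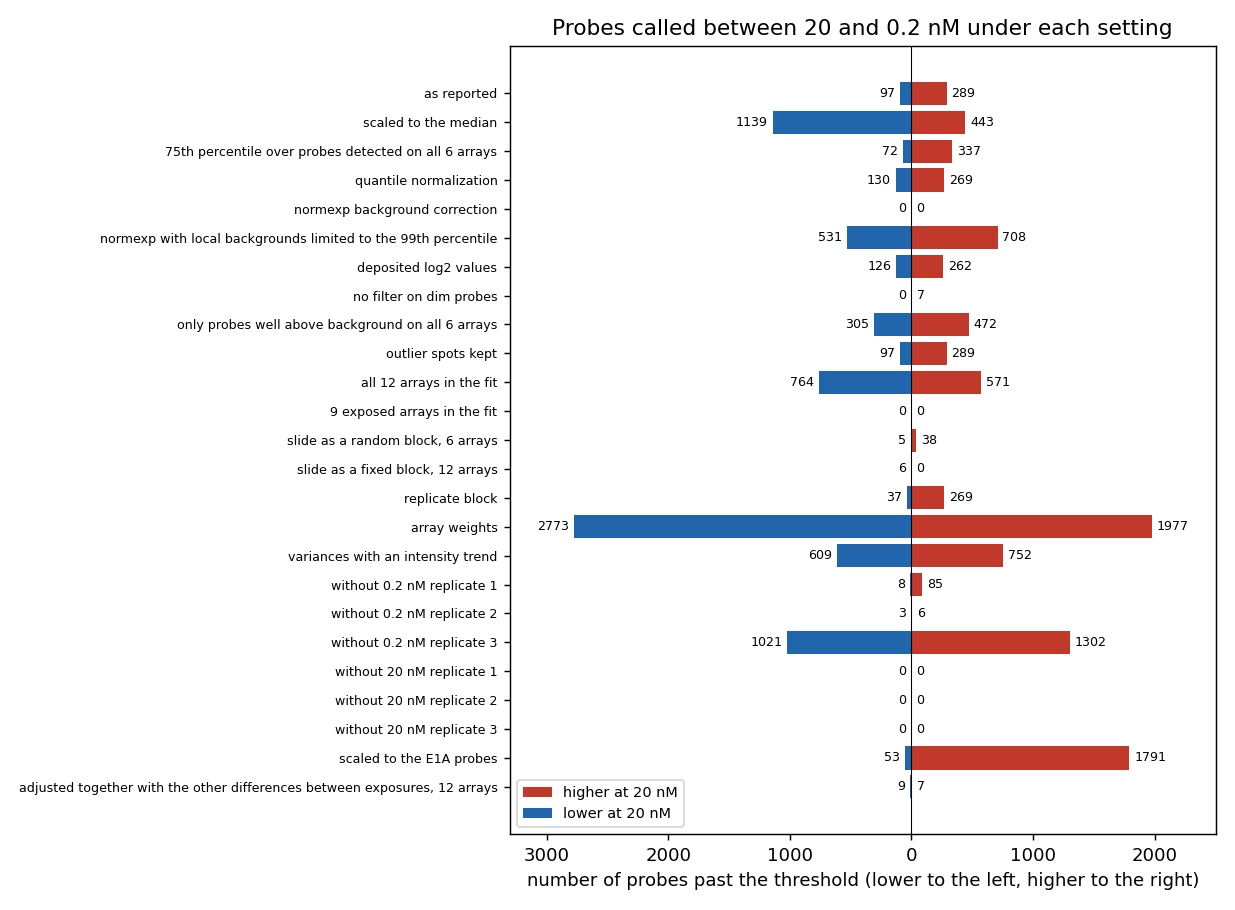
Number of probes past the threshold between 20 and 0.2 nM under each setting, higher to the right in red and lower to the left in blue, with the counts beside the bars. The reported setting has 289 higher and 97 lower; the counts run from 0 without any one 20 nM array to 1977 higher and 2773 lower with array weights.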

How the data were processed

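Total RNA of 12 pools was measured on single-colour Agilent arrays, 4 per slide. The authors deposited spot intensities on a linear scale, with background subtracted and spatial trends removed within each array by Agilent Feature Extraction 10.7.3.1, per the file headers; the submitters' processing notes name version 10.7. Marks of the scanner software for outliers and for spots well above background were also deposited (other columns). The authors also deposited log2 values, whose columns shared a median of 4.34 over the custom probes and correlated with their arrays at r of at least 0.999. They are uncentred log2 values in the direction of the scanner values, made by a program that the sources used here do not give; their columns share nearly 1 distribution.

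From log2 of each intensity, the array's 75th percentile over custom spots was subtracted. Outlier spots were left out and the spots of a probe averaged. A probe was well above background on an array when over 0.5 of its spots were. No spot was saturated (0 spots). The 6 arrays were fitted with limma 3.58.1 in R 4.3.3 with moderated variances, two-sided, adjusted over 11746 probes, of which 7 lacked a value on some array and none of these was called. The fit was tested on simulated data without a slide effect, so that test has no bearing on telling slide and exposure apart. The 4 probes named by rule were the 2 largest rises and 2 largest falls past the threshold, well above background on all 6 arrays and without overlap. Probes and tests were chosen with earlier results of these data known. Normexp was run on the median spot signal, the spot signal given beside the processed one in the scanner columns, in place of the planned mean. An offset of 50 units was used. Alternatives were other scalings, background corrections, filters and array sets, slide or replicate number as a block, and leaving out each array. The number of arrays limits the precision.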

Additional observations from a re-analysis of the deposited data

How the results depend on the processing

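Of the recomputed counts of called probes (386 reported), 5 stayed within 1.5 times and 19 moved. Scaling to the median gave 1582 (443 higher, 1139 lower) and to E1A probes, added after seeing the data, 1844. Planned normexp correction gave 0 in limma (493 at an unadjusted p under 0.05). Some arrays held local backgrounds up to 34763 units, and with these limited to the 99th percentile, added later, 1239 passed (708 higher, 531 lower). Without a filter on dim probes 7 passed, and with only probes detected on all 6 arrays 777 (472 higher, 305 lower). All 12 arrays in the fit gave 1335 (571 higher, 764 lower), the 9 exposed arrays 0 (3704 at an unadjusted p under 0.05), array weights 4750, an intensity trend in the variance 1361, slide as a random block 43 and as a fixed block 6. Adjusted together with the other differences between exposures, 16 passed. Leaving out 1 array gave 0 to 2323. The cause of these moves was not tested.

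The replicate block gave 306 calls (269 higher, 37 lower). Same-numbered arrays correlated at 0.047, 9.2e-05 and 0.066 in their deviations. With few arrays per exposure and the lower exposure on different slides, these values cannot decide whether the numbers pair the samples. Probes detected in 1 exposure only, 191 as reported, numbered 256 to 498 without 1 array. For the 4 named probes 58 values kept the call, 32 lost it and 2 lost it with a change of sign, at values smaller than their SE. These were CUST_14628_PI414333748, at -0.16, and CUST_670_PI414333748, at -0.023, with slide as a fixed block.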

Other observations

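The mean level of the E1A control probes was 4.75 to 4.84 on slide 3 and 5.03 to 5.07 on slide 1. On slide 2 it was 4.54 and 5.08 at 2 nM and 5.01 and 4.92 at 0.2 nM. Within 2 nM, slide 3 holds 1 array and slide 2 holds 2, so slide and pool cannot be told apart there. The 2 nM array of slide 3 was at 4.80, between those of slide 2, and the 20 nM arrays on its slide were at 4.84, 4.75 and 4.77. On slide 1 the controls were at 5.06, 5.03 and 5.07, and replicate 3 at 0.2 nM was at 5.03.

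Array weights, estimated within the 6 arrays, were 2.13, 1.55 and 0.35 for replicates 1, 2 and 3 at 0.2 nM and 0.32, 1.28 and 2.12 for those at 20 nM. The lowest weights fell on replicate 3 at 0.2 nM, which was alone on its slide in this comparison, and on replicate 1 at 20 nM.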
